A study of Mus musculus with 11 samples.

Results

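Of the 11 RNA-seq libraries of the study, 7 were compared here, 4 from OVA/LPS/Vehicle mice and 3 from PBS mice. The libraries were taken by their group labels alone, although the comparison itself was chosen with earlier results of these data known. OVA/LPS/Vehicle mice were wild-type BALB/c males of 6 to 8 weeks of age that were sensitized with intraperitoneal ovalbumin (OVA) and alum on days 0 and 7. They then inhaled OVA through the nose from day 14 to day 17 and lipopolysaccharide (LPS), a bacterial cell wall component, on days 19 and 21, and received vehicle into the trachea on days 21, 22 and 23. PBS mice were of the same strain, sex and age, were not sensitized, and received sterile phosphate-buffered saline only. Tissue was taken on day 25. The vehicle, OVA, alum and LPS were therefore all on 1 side of the comparison, and their effects cannot be told apart. The OVA/LPS/Vehicle libraries carry the numbers 12, 34, 56 and 78 and are called OL below, and the PBS libraries are numbered 1 to 3. Whether a number such as 12 stands for pooled mice is not stated. Nor do the labels say that each library came from its own animal, so that the p-values measure the spread between these libraries.

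The labels call the tissue trachea, whereas the study's methods describe airway freed from the lung by blunt dissection without the trachea. The markers of conducting airway were abundant in every library. Scgb1a1, the main secretory protein of club cells, lay between 26145 and 47905 FPKM (fragments scaled to exon length and to the library total), and Foxj1, the master regulator of motile cilia, between 21.2 and 92.5 FPKM. Sftpc, the surfactant protein of alveolar type 2 cells in the lung parenchyma, was also present in every library, at 4164 to 12502 FPKM. Col2a1, the cartilage collagen that marks tracheal rings, lay between 0.373 and 9.38 FPKM in 6 libraries and was listed at 0 in PBS 3. The tissue is called airway here.

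Allergic airway disease of the type 2 kind is driven by interleukins 4, 5 and 13. Through the transcription factor STAT6, interleukin 13 turns club cells into mucus-producing goblet cells and induces chitinase-like and resistin-like proteins in epithelium and macrophages. LPS acts through the receptor TLR4 and the transcription factor NFkB, which induces chemokines that recruit neutrophils. The comparison asks which genes differ in the airway 2 days after the last vehicle dose, when both stimuli have been given.

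The libraries differed in composition as well as in single genes. The totals implied by the FPKM steps were 15062757, 15502788 and 18632382 fragments for PBS 1 to 3, and 15501854, 15806695, 15941756 and 16710799 for OL 12 to 78. A single fragment on a transcript of 1 kb was worth 0.0537 to 0.0664 FPKM. Mitochondrially encoded genes held 6.39%, 10.1% and 2.08% of the summed FPKM in PBS 1 to 3 and 19.5%, 14.5%, 17.4% and 16.3% in OL 12 to 78. The groups did not overlap, and PBS 3 was lowest. In each library the deviation of log2(FPKM + 1) from the gene means was regressed on the GC content of the gene, and the slopes per 10 percentage points were 0.0611, 0.0484 and 0.533 in PBS 1 to 3 and -0.190, -0.261, -0.258 and -0.233 in OL 12 to 78. PBS 3 thus stood apart by its excess of GC-rich genes. The slopes of the 2 groups did not overlap, so that GC dependence and group cannot be told apart. A correction for GC content can therefore also remove differences that belong to the groups. The first principal component took 68.7% of the variance, with scores of 41.0, 2.97 and 68.8 for PBS 1 to 3 and between -32.1 and -26.0 for the OL libraries. PBS 2 lay nearest to the OL libraries. What set these libraries apart was not tested. Counts of calls are therefore set beside those without PBS 3 and those with a correction for GC content where these differ by much. Many named genes that lose their call in either of these settings are given as such. With both together 112 of 169 named genes called lost their call, and these losses are not marked gene by gene.

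**Figure D1:**
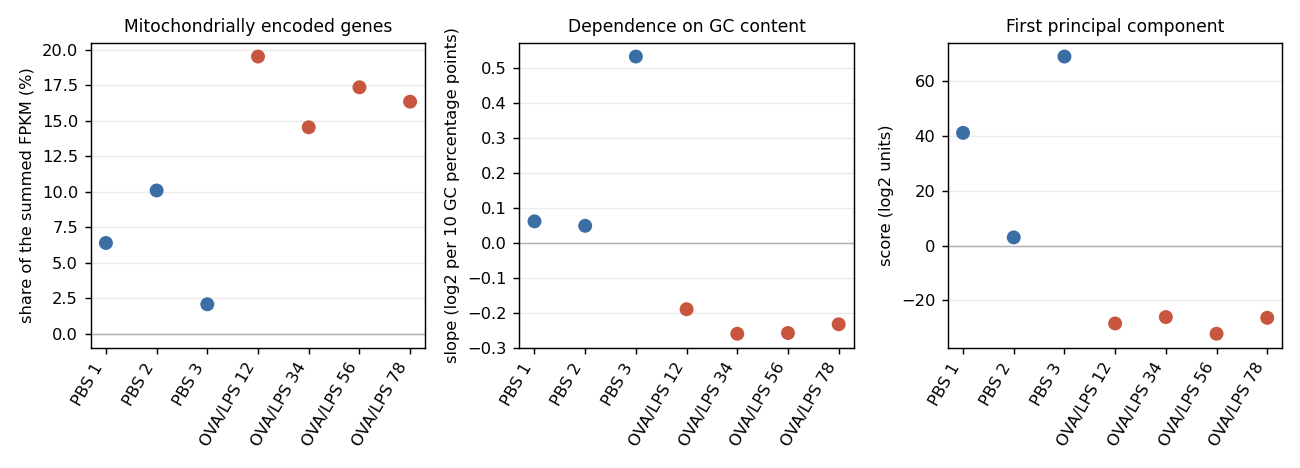
Share of summed FPKM from mitochondrially encoded genes (%), slope of the log2 deviation on GC content (log2 per 10 percentage points) and score on the first principal component (log2 units), with 1 point per library (blue, PBS; red, OVA/LPS/Vehicle). The 4 OVA/LPS/Vehicle libraries lie together in all panels, and PBS 3 has the lowest mitochondrial share (2.08%) and the steepest GC slope (0.533).

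Among 14004 genes whose FPKM averaged 0.5 or more over all 11 libraries of the study, 2231 were higher and 3096 lower in OVA/LPS/Vehicle than in PBS airway at an adjusted p under 0.05 (limma, Benjamini-Hochberg). This is 38.0% of the genes tested, 15.9% in the higher and 22.1% in the lower direction, and these shares are the background against which each gene group below is to be read. Differences of over 1 on the log2 scale were found for 400 higher and 205 lower genes. The ranges of the groups did not overlap for 18.7% of the genes in the higher and 25.4% in the lower direction. Without PBS 3 there were 1175 higher (8.39%) and 1889 lower (13.5%) genes, with the GC correction 1101 (7.87%) and 1803 (12.9%), and with both 152 (1.09%) and 156 (1.12%). Called in the same direction in all 4 of these settings were 139 higher (0.993%) and 133 lower (0.950%) genes. The median GC content was 43.3% for the higher genes, 55.0% for the lower genes and 49.9% for all genes tested. Among the genes called in all 4 settings these medians were 48.2% and 51.6%. With the mitochondrially encoded genes taken out and the libraries rescaled, 1832 genes were higher and 2943 lower. Of the calls, 41.9% were in the higher direction, but 21.2% when all libraries were set to the same FPKM total, which moved the median log2 fold change of all genes from -0.01 to -0.15.

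**Figure D2:**
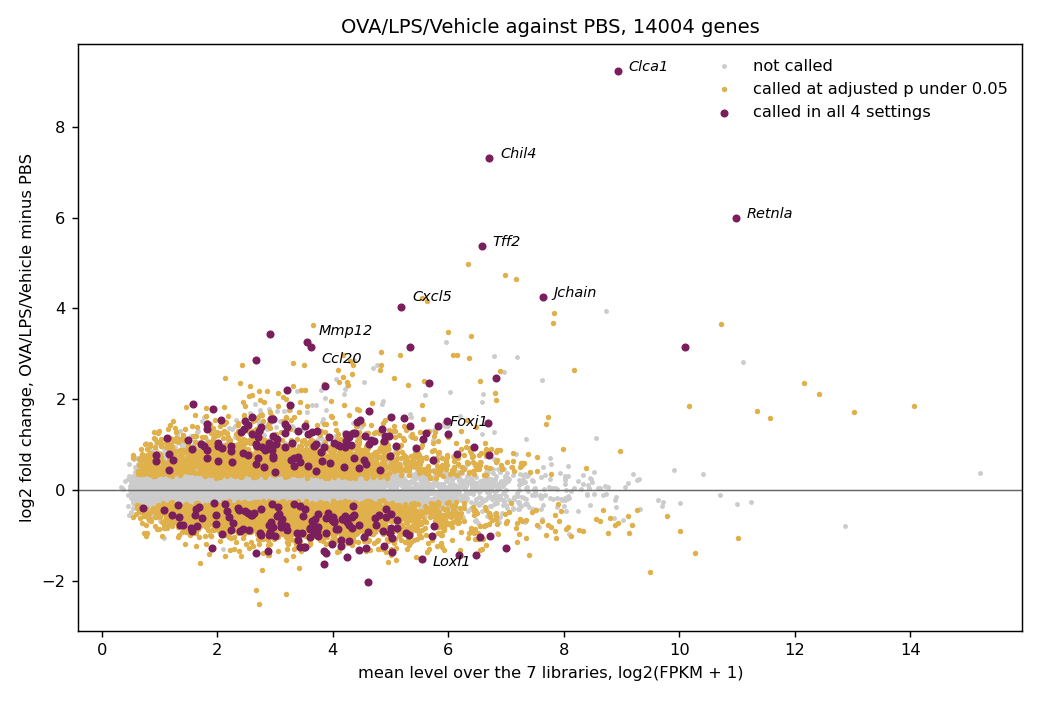
Log2 fold change of 14004 genes (OVA/LPS/Vehicle minus PBS) against their mean level over the 7 libraries on the log2(FPKM + 1) scale. Grey points were not called, yellow points were called at an adjusted p under 0.05, and purple points were called in all 4 settings (139 higher, 133 lower). Clca1 lies at the top, at 9.23.

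Genes of the mucus programme of goblet cells rose, some from almost no signal. Log2 fold changes are given below ± SE, with the adjusted p of limma (Benjamini-Hochberg), and mean FPKM ± SD (n = 3 PBS and n = 4 OL libraries). Of 18 mucus genes tested, 13 were higher and none lower, and their median log2 fold change was 1.76 against -0.01 for all genes. Clca1, a secreted protein that helps mucus to unfold, was at 0, 0.376 and 0.554 FPKM in PBS 1 to 3 and at 808, 894, 374 and 1338 FPKM in OL 12 to 78. These levels rested on 0, 22 and 39 fragments in PBS against at least 22497 in each OL library, a difference of 9.23 ± 0.83 on the log2 scale (adjusted p = 0.0005). Tff2, a trefoil peptide that is secreted with mucins, rose from 0.455, 11.5 and 1.56 FPKM to 71.4, 151, 246 and 182 FPKM (5.37 ± 0.92, adjusted p = 0.00393). For both genes the lowest OL library lay far above the highest PBS library. In bulk tissue, more cells of a type and more RNA in each of them cannot be told apart.

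Muc5ac, the gel-forming mucin that goblet cells make in disease, was at 0.0556, 0.42 and 0.11 FPKM in PBS 1 to 3 and at 7.21, 8.03, 3.38 and 11.5 FPKM in OL 12 to 78. The groups did not overlap, and the log2 fold change was 2.75 ± 0.60 (adjusted p = 0.00772). Muc5b, the mucin that healthy airways also secrete, had 1.07, 13 and 1.14 FPKM in PBS and 21.4, 27.3, 17 and 31 FPKM in OL. Here PBS 2 came close to OL 56 (2.63 ± 0.72, adjusted p = 0.0168), and without PBS 3 it was not called (adjusted p = 0.0835). Agr2, a disulfide isomerase needed for mucin folding, had 13.1 FPKM in PBS 2 against 1.34 and 0.208 FPKM in PBS 1 and 3 and 19.9 to 30.2 FPKM in OL (2.98 ± 0.81, adjusted p = 0.0166), and it too was not called without PBS 3. Spdef, the transcription factor of goblet cell differentiation, rose from 0.432, 1.12 and 0.792 FPKM to 3.47, 4.2, 3.35 and 4.41 FPKM (1.46 ± 0.31, adjusted p = 0.0066). Foxa3, which acts with it, rose by 1.14 ± 0.34 (adjusted p = 0.0233), and Ern2, the stress sensor of mucous cells, by 1.29 ± 0.38 (adjusted p = 0.0229), but neither was called without PBS 3. Muc5b, Agr2, Foxa3 and Ern2 also lost their calls without PBS 1. Itln1, a lectin found in allergic mucus, rose from 1.16 ± 0.339 to 19.3 ± 8.14 FPKM (3.15 ± 0.65, adjusted p = 0.00642). Slc26a4, the anion exchanger pendrin, rose from 1.1 to 3.09 FPKM to between 5.49 and 18.1 FPKM (2.06 ± 0.46, adjusted p = 0.00822). Bpifb1, a secreted defence protein of mucous cells, stood at 4.77, 69.1 and 0.935 FPKM in PBS and between 194 and 272 FPKM in OL (4.65 ± 1.08, adjusted p = 0.00937). Gcnt3, a glycosyltransferase of mucin synthesis, was under the filter, with 0 to 0.03 FPKM in PBS and 0.394 to 0.705 FPKM in OL. An exact two-sided permutation test of 4 against 3 libraries gave p = 0.0571 for it, the smallest p this design can give. With the GC correction 13 mucus genes were also higher, without PBS 3 there were 7, and with both there were 3. Clca1, Tff2 and Spdef were called in all 4 settings.

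Chitinase-like and resistin-like (RELM) proteins also rose. Of 8 tested, 5 were higher and none lower, with a median log2 fold change of 1.01. Retnla, the resistin-like protein RELMα that is induced by interleukins 4 and 13, had the smallest p of all genes. Its level was 36.7, 51 and 74.8 FPKM in PBS 1 to 3 and 3651, 3450, 2093 and 4764 FPKM in OL 12 to 78, a 64.4-fold difference of the means (5.98 ± 0.42, adjusted p = 0.000192). Chil4, a chitinase-like protein of the allergic lung, was listed at 0 in PBS 1 and 2 and at 0.114 FPKM in PBS 3, which is 6 fragments, and at 164, 156, 86.2 and 318 FPKM in OL (7.30 ± 0.82, adjusted p = 0.00242). Chil3, also called Ym1, rose from 63.6, 44.7 and 72.7 FPKM to 679, 305, 131 and 735 FPKM (2.65 ± 0.53, adjusted p = 0.00569). OL 56 was lowest for these 3 genes, yet above every PBS library. Chil3 and Chil4 are near-identical copies, and how fragments were shared between them is uncertain. Chia1, the acidic mammalian chitinase, rose from 34.4 ± 6.48 to 84.5 ± 23.2 FPKM (1.25 ± 0.24, adjusted p = 0.00511). Retnlb was listed at 0 in every PBS library and at 0.27 to 1.63 FPKM in OL, on 3 to 19 fragments, and its call was lost without PBS 3 and with the GC correction. It passed the filter only because the OVA/LPS/GGsTop libraries counted in the mean. Retnlg, with 16.2 to 31.9 FPKM in PBS and 14.6 to 72.5 FPKM in OL, and Chil1, with 142 to 213 and 141 to 300 FPKM, overlapped between the groups and did not pass the test (adjusted p = 0.248 and 0.411). Retnla, Chil4 and Chia1 were called in all 4 settings.

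The promoter of Retnla is shown because a STAT6-type palindrome lies in it. The letters TTC and GAA with any 4 bases between them, which read the same on both strands, were searched in the 250 bases before each RefSeq start site on GRCm38.p6. They occurred in 5.85% of 32851 promoters of all genes. Of the 18 mucus, chitinase-like and RELM genes called higher, 11 had a promoter sequence in the table, and 1 of their 12 promoters held the letters. Retnla (chr16:48842359-48842608, plus strand) is printed 5′ to 3′, ending at the base before the start site, with the match in capitals, 145 to 136 bases before the start.
Retnla: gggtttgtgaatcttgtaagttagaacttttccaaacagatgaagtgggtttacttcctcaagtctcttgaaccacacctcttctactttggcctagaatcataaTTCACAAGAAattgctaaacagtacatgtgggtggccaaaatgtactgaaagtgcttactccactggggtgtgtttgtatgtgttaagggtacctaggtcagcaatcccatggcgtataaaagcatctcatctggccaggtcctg
A match describes the letters only and is not evidence of binding.

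**Figure D3:**
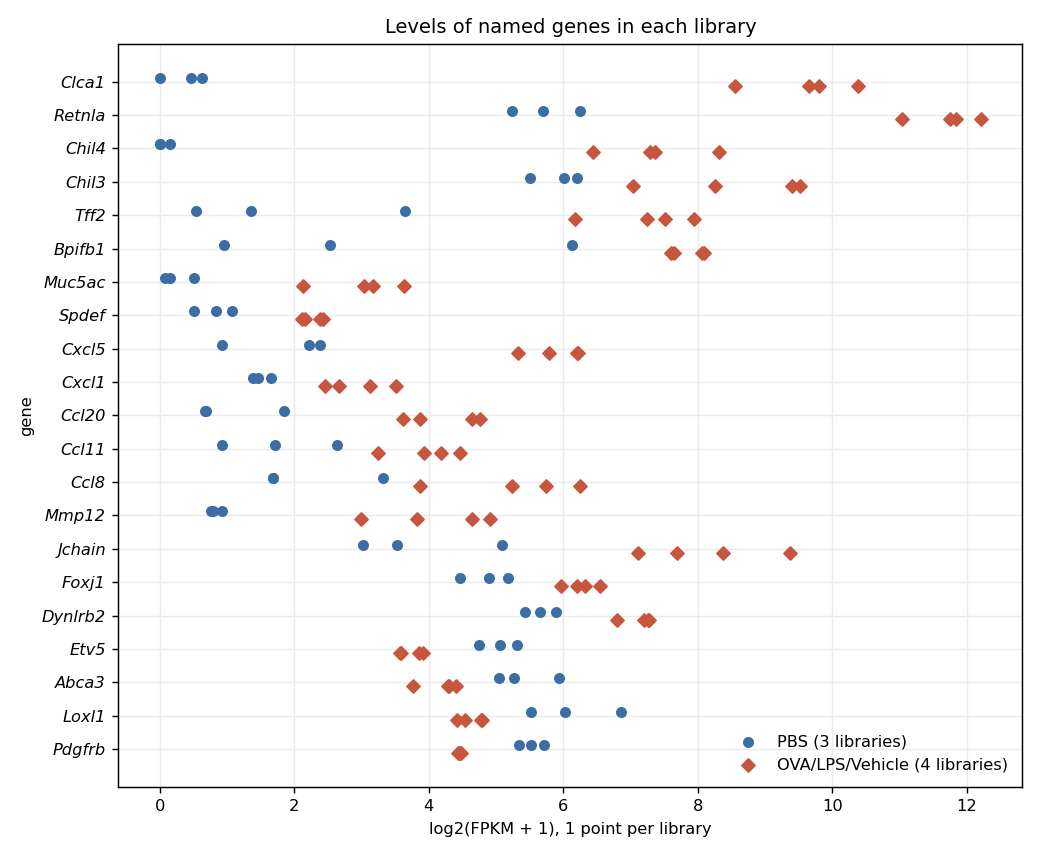
Levels of 21 genes on the log2(FPKM + 1) scale, with 1 point per library (blue circles, PBS; red diamonds, OVA/LPS/Vehicle). The groups do not overlap for any gene shown; the last 4 genes (Etv5, Abca3, Loxl1, Pdgfrb) are lower in OVA/LPS/Vehicle and the others higher.

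Several chemokines that attract neutrophils and other leukocytes rose. Of 19 CXC chemokine and receptor genes tested, 4 were higher and 2 lower (median 0.15). Cxcl5, an epithelial neutrophil attractant, was at 4.24, 3.67 and 0.893 FPKM in PBS 1 to 3 and at 39, 72.6, 54.3 and 73.7 FPKM in OL 12 to 78 (4.04 ± 0.43, adjusted p = 0.00236). Cxcl1 rose from 1.63, 2.17 and 1.75 FPKM to 7.78, 10.5, 4.48 and 5.36 FPKM (1.44 ± 0.23, adjusted p = 0.00365), and Cxcl2 from 0.578, 0.187 and 0.234 FPKM to 2.15, 2.78, 1.58 and 0.868 FPKM (1.06 ± 0.22, adjusted p = 0.00619). Both also attract neutrophils, and every OL library lay above every PBS library for all 3. Cxcl17, a mucosal chemokine, rose from 32.3 ± 29.8 to 139 ± 26.5 FPKM (2.41 ± 0.52, adjusted p = 0.00716). Cxcl14, a chemokine of resting epithelium and stroma, fell from 41.7 ± 17 to 15.6 ± 3.90 FPKM. Cxcr1, a receptor on neutrophils, fell from 0.519 to 1.83 FPKM to between 0.0421 and 0.26 FPKM, which are at most 6 fragments. Cxcl5 and Cxcl1 were called in all 4 settings.

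The promoters of Cxcl1 and Cxcl2 are shown because both carry the same 11 bases of the NFkB type. The letters GGGAA and TTCC with any base between them, searched on both strands, occurred in 0.283% of all promoters of the same length, or 93 of 32851. Of the 14 chemokine and receptor genes called higher, 8 had a promoter in the table, 1 each, and 2 of these held the letters. The sequences end at the base before the start site, and the capitals mark GGGAATTTCCC, 71 to 61 bases before the start of Cxcl1 (chr5:90890995-90891244, plus strand) and 97 to 87 bases before that of Cxcl2 (chr5:90903649-90903898, plus strand).
Cxcl1: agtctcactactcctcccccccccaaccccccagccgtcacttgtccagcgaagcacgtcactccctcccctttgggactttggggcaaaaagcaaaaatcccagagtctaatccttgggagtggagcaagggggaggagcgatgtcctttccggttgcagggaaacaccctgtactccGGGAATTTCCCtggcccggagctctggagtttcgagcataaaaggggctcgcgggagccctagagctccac
Cxcl2: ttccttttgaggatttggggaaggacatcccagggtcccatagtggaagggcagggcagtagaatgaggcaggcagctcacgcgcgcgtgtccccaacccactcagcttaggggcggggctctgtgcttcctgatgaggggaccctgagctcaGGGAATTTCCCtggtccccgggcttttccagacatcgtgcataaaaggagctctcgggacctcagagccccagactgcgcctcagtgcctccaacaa
The genes are paralogs that lie side by side, so that the shared letters are not independent observations.

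Of 26 CC chemokine and receptor genes, 10 were higher and 1 lower, with a median of 0.57. Ccl20, which attracts CCR6-bearing lymphocytes and dendritic cells, was at 0.607, 2.59 and 0.604 FPKM in PBS and at 13.6, 26.3, 24.1 and 11.3 FPKM in OL (3.16 ± 0.39, adjusted p = 0.00337). It alone of the list was called in all 4 settings. Ccl11, or eotaxin 1, the attractant of eosinophils, rose from 2.27, 5.25 and 0.893 FPKM to 17.2, 14.2, 8.46 and 21.2 FPKM (2.20 ± 0.40, adjusted p = 0.00451). Ccl8, a ligand that recruits Th2 cells, rose from 2.21, 8.96 and 2.21 FPKM to 52.9, 36.6, 13.6 and 75.4 FPKM (3.05 ± 0.62, adjusted p = 0.00598). OL 56 was lowest for both, and no OL library reached down to the PBS range. The monocyte attractants Ccl2 (1.12 ± 0.29, adjusted p = 0.0141) and Ccl7 (1.05 ± 0.31, adjusted p = 0.0224) rose from means of 1.25 and 1.44 FPKM to 3.96 and 3.90 FPKM. Ccl9 (0.98 ± 0.23) and the mucosal chemokine Ccl28 (1.13 ± 0.26) were also higher. None of these 4 was called with the GC correction (adjusted p = 0.0675, 0.124, 0.134 and 0.0635), and Ccl7 was not without PBS 3 either (adjusted p = 0.0901). The receptor gene Ccr1 was called, at 0.64 ± 0.21, but not without PBS 3 (adjusted p = 0.0583). With the GC correction its difference was 0.09 and no longer passed. Ccr7, which guides dendritic cells and naive T cells to lymph nodes, fell from 15.1, 16.7 and 17.5 FPKM to 8.9, 5.12, 9.23 and 4.39 FPKM (-1.20 ± 0.21, adjusted p = 0.00397). Without PBS 3 the list had 6 higher and 1 lower gene, and with the GC correction 3 and 1.

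Of the cytokines that define type 2 and type 1 responses, Il5, Il13 and Ifng were close to the limit of detection. Il5 was listed at 0 in all PBS libraries and had 2, 0, 0 and 3 fragments in OL 12 to 78. Il13 had 0, 1 and 4 fragments in PBS and 2, 0, 0 and 2 in OL, and Ifng 6, 2 and 0 against 5, 3, 0 and 0. For these genes a difference was not detectable at this depth (exact permutation p = 0.571, 0.743 and 0.743). Il4 was higher, with 2.81, 2.89 and 0.831 FPKM in PBS and 4.47, 3.92, 3.53 and 4.58 FPKM in OL (0.76 ± 0.25, adjusted p = 0.0321), but not without PBS 3 or with the GC correction. The alarmin Tslp, at 0.726 to 2.09 FPKM in PBS and 1.8 to 2.83 FPKM in OL, did not pass (adjusted p = 0.123). Tnf, with 1.01 to 1.26 against 1.2 to 2.2 FPKM, did not pass either (adjusted p = 0.178). Over the whole list of 14 type 2 cytokines, alarmins and receptors, 4 were higher and 3 lower, against 1 and 1 without PBS 3, 1 and none with the GC correction and none with both. Il13ra1, a signalling receptor chain, rose from 13.1 ± 6.20 to 30.7 ± 4.46 FPKM (1.27 ± 0.31, adjusted p = 0.0112). Il4ra, the chain that it pairs with, fell from 39.1 ± 13.6 to 21.2 ± 0.938 FPKM (-0.79 ± 0.22, adjusted p = 0.0169), and Stat6 fell from 42.4 ± 5.73 to 28.5 ± 2.60 FPKM (-0.55 ± 0.13, adjusted p = 0.0088). Il4ra was not called without PBS 3 (adjusted p = 0.0726) or with the GC correction (adjusted p = 0.0967), nor was Stat6 with the GC correction (adjusted p = 0.0581). Il13ra2, the decoy receptor, was listed at 0 in all PBS libraries and at 0.226, 0.166, 0.0825 and 0.682 FPKM in OL, and its exact permutation p of 0.0571 is the smallest possible. Of the 11 genes that the study also followed by qPCR, 6 passed the filter, and Cxcl1, Cxcl2, Ccl2 and Muc5ac were higher. Cxcl3, under the filter, had 0.0759, 0.0553 and 0.153 FPKM in PBS and 0.682, 0.669, 0.233 and 0.633 FPKM in OL, and Il25 had at most 3 fragments in any library.

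Among immune cell markers, single genes of plasma cells and of macrophages differed. Jchain, the joining chain of secreted IgA and IgM, was at 10.5, 33.2 and 7.16 FPKM in PBS and at 331, 206, 137 and 665 FPKM in OL (4.26 ± 0.58, adjusted p = 0.00337). Derl3, a factor of the secretory pathway in plasma cells, rose from 1.14 ± 0.251 to 3.64 ± 1.79 FPKM (1.05 ± 0.28, adjusted p = 0.0146). Cd79a, part of the B cell receptor, had 37.9 to 45.6 FPKM in PBS and 14.5 to 40.3 FPKM in OL (adjusted p = 0.177), and over 19 B and plasma cell genes 2 were higher and 1 lower (median -0.32, with 9 of 19 fold changes above 0). The lower one was Sdc1, the plasma cell surface marker CD138 that epithelium also carries, which fell from 57.1 ± 10.2 to 42.9 ± 5.99 FPKM (-0.40 ± 0.14, adjusted p = 0.0426) but was not called without PBS 3 or with the GC correction. Mmp12, the macrophage elastase, rose from 0.706, 0.731 and 0.905 FPKM to 24, 13.2, 6.96 and 29.1 FPKM (3.26 ± 0.46, adjusted p = 0.00337). Jchain and Mmp12 were called in all 4 settings. Of 17 complement genes 3 were higher and 3 lower. Of 28 macrophage and dendritic cell genes, 2 were higher and 5 lower, against 1 and none without PBS 3 and 2 and none with the GC correction. C1qa, the complement subunit that tissue macrophages make, rose from 38.9 ± 5.43 to 62.5 ± 12.7 FPKM (0.66 ± 0.19, adjusted p = 0.0214), and Csf1r, their growth factor receptor, fell from 26.2 ± 4.70 to 16.9 ± 3.36 FPKM (-0.61 ± 0.16, adjusted p = 0.0151), a call lost in both of these settings. Lyz2, the most abundant gene of the list, had 2356 to 3293 FPKM in PBS and 1905 to 2748 FPKM in OL (adjusted p = 0.401).

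Granulocyte markers were called at about the rate of all genes or below it in the main fit. Of 17 neutrophil genes, 3 were higher and 3 lower, against 3 and none without PBS 3, 4 and none with the GC correction and none with both. The higher counts without PBS 3 and with the GC correction lay above the shares of all genes there (8.39% and 7.87%). Ltf, the iron-binding lactoferrin of neutrophil granules and glands and the most abundant gene of the list, was at 21.2, 178 and 2.92 FPKM in PBS and at 251, 364, 522 and 222 FPKM in OL (3.69 ± 1.21, adjusted p = 0.0334), and was not called without PBS 3 (adjusted p = 0.169). The granule genes Camp (0.34 to 0.354 against 0.632 to 1.62 FPKM) and Ngp (0.211 to 1.27 against 1.64 to 3.53 FPKM) rose, by 0.61 ± 0.16 and 1.0 ± 0.29 on the log2 scale. S100a9, the calprotectin subunit that neutrophils hold in large amounts, was at 99.6, 57.6 and 222 FPKM in PBS and at 117, 156, 90.4 and 135 FPKM in OL, and S100a8 at 23.5, 11.4 and 48.3 against 27.5, 40.1, 21.5 and 32.7 FPKM. PBS 3 was highest for both, and neither passed the test (adjusted p = 0.75 and 0.544). Csf3r, the receptor for the neutrophil growth factor, fell from 25.6 ± 12.5 to 13.1 ± 3.75 FPKM (-0.86 ± 0.31, adjusted p = 0.0456), and the call was lost without PBS 3 and with the GC correction. Ly6g, under the filter, had 0, 0 and 3 fragments in PBS and 7, 13, 6 and 15 in OL. Of 9 eosinophil genes, Prg2, the major basic protein, was the only one called, at 0.0792 to 0.539 FPKM in PBS and 0.599 to 1.39 FPKM in OL (0.58 ± 0.19, adjusted p = 0.0303), and was not called without PBS 3. Epx, eosinophil peroxidase, had 0 fragments in PBS and 5, 0, 2 and 12 in OL. Alox15 was at 2.41 to 5.63 FPKM in PBS and at 13.5, 12.7, 4.14 and 18.1 FPKM in OL, with OL 56 inside the PBS range (adjusted p = 0.069). Rnase2a, an eosinophil-associated ribonuclease named here after its values were seen, was listed at 0 in all PBS libraries and at 17.7, 9.63, 3.55 and 14.7 FPKM in OL (adjusted p = 0.00365). It belongs to a family of close copies, so its assignment is uncertain. Ms4a2, the mast cell IgE receptor chain, rose from 0.277 ± 0.187 to 0.998 ± 0.203 FPKM (0.65 ± 0.15, adjusted p = 0.00875), but by 0.04 with the GC correction. Kit, the stem cell factor receptor, fell from 39.3 ± 10.1 to 19.9 ± 2.02 FPKM (-0.91 ± 0.25, adjusted p = 0.0165), but was not called without PBS 3.

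None of 24 T cell and innate lymphocyte genes was called in either direction, and their median was 0.09. Of 8 cytotoxic lymphocyte genes, 2 were lower. Prf1, the pore-forming protein of killer cells, was at 2.88, 3.05 and 2.7 FPKM in PBS and at 1.57, 1.18, 1.24 and 0.787 FPKM in OL (-0.83 ± 0.12, adjusted p = 0.00348), and kept its call in all 4 settings. Gzmb, granzyme B, fell from 2.23 ± 0.306 to 1.12 ± 0.698 FPKM (adjusted p = 0.0363), although OL 12, at 2.16 FPKM, lay within the PBS range of 1.91 to 2.52 FPKM and the call was lost without PBS 3. Few interferon genes were called. Of 22 genes of the interferon-gamma and GTPase group 1 was higher and 1 lower, and of 22 type I interferon-stimulated genes 1 and 3. Ifngr2, a receptor chain for interferon gamma, rose from 15.6 ± 1.59 to 21.7 ± 1.57 FPKM (0.45 ± 0.10, adjusted p = 0.00726). The GTPase genes Iigp1 and Tgtp2 stood high in OL 12 alone, at 27 and 23.6 FPKM against at most 5.91 and 8.72 FPKM in the other OL libraries, and did not pass (adjusted p = 0.128 and 0.0831). The antigen presentation lists also stayed near or under the background, with 1 higher and 1 lower of 14 class II genes and 1 higher and 3 lower of 18 class I genes, and none of either list was called without PBS 3.

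In the main fit the genes of LPS sensing were called at rates near those of all genes in both directions. Of 23 TLR pathway genes 5 were higher and 6 lower, and of 32 NFkB subunits and targets 6 were higher and 7 lower, against a background of 15.9% and 22.1%. In the TLR list 1 was higher and 4 were lower both without PBS 3 and with the GC correction, and none and 1 with both. In the NFkB list 6 were higher and 5 lower without PBS 3, 5 and 5 with the GC correction and 3 and none with both. Of all genes 8.39%, 7.87% and 1.09% were higher in these settings, and the NFkB list lay above each of these shares. In the lower direction the shares of all genes were 13.5%, 12.9% and 1.12%, and the NFkB list lay above the first 2 of them. Cxcl1 is counted both here and among the chemokines. Tlr4, the LPS receptor itself, had 4.07, 5.43 and 2.87 FPKM in PBS and 6.72, 7.33, 5.54 and 8.37 FPKM in OL (0.66 ± 0.19, adjusted p = 0.0194), and 0.12 with the GC correction, and was called neither then nor without PBS 3. Cd14, its co-receptor, rose from 17.7, 24.8 and 21.1 FPKM to 28.2, 45.8, 35.7 and 41.3 FPKM (0.79 ± 0.25, adjusted p = 0.0275), but not without PBS 3. The adaptor Ticam2 rose from 0.412 ± 0.0301 to 1.10 ± 0.124 FPKM (0.57 ± 0.10) and was not called with the GC correction, whereas the adaptor Myd88 fell from 20.5 ± 1.87 to 13.8 ± 1.27 FPKM (-0.54 ± 0.10). Tlr5, the flagellin receptor, fell from 3.79, 2.8 and 2.49 FPKM to 1.22, 1.19, 0.846 and 1.38 FPKM (-0.89 ± 0.15, adjusted p = 0.00366) and was the only gene of its list called in all 4 settings. The NFkB subunit Rela fell from 52.7 ± 9.70 to 28.9 ± 1.39 FPKM (-0.83 ± 0.14, adjusted p = 0.00366), and Relb from 11.7 ± 2.06 to 7.18 ± 0.688 FPKM. Icam1, an adhesion molecule and NFkB target, fell from 86.1 ± 32.2 to 36.2 ± 2.95 FPKM (-1.16 ± 0.24, adjusted p = 0.00662). Saa3, an acute phase protein, was at 1.04, 0.668 and 4.16 FPKM in PBS and at 4.95, 7.43, 4.89 and 12.2 FPKM in OL (1.60 ± 0.43, adjusted p = 0.0151), and with Cxcl1 it was called in all 4 settings. Nfkbia, the feedback inhibitor, had 67.8 to 114 FPKM in PBS and 82.7 to 134 FPKM in OL (adjusted p = 0.214). In a list for IL-17 and IL-22, 2 of 12 genes were lower and none higher, under the shares of all genes. The 2 lower genes were the receptor chains Il17re (-0.94 ± 0.15, adjusted p = 0.00366), at 5.51, 3.61 and 6.14 FPKM in PBS and 1.91 to 2.21 FPKM in OL, and Il17rc (-0.82 ± 0.16, adjusted p = 0.00524). With the GC correction 1 gene of the list was higher and 2 were lower. Cxcl1, Cxcl5, Ccl20 and Saa3, which were called higher, are not in this list, so that it does not describe them.

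Genes of multiciliated cells, which move mucus along the airway, rose together. Of 20 tested, 15 were higher and none lower (median 1.16). There were 11 higher without PBS 3, 15 with the GC correction and 8 with both, and these 8 were called in all 4 settings. Foxj1 was at 21.2, 35.3 and 28.7 FPKM in PBS and at 61.4, 79.2, 72.6 and 92.5 FPKM in OL (1.41 ± 0.25, adjusted p = 0.00416). The early regulators Mcidas (1.16 ± 0.20, adjusted p = 0.00391) and Ccno (1.01 ± 0.15, adjusted p = 0.00348), which start centriole multiplication, rose from means of 0.292 and 1.06 FPKM to 1.88 and 3.19 FPKM. Structural genes rose too. Dynlrb2, a dynein light chain, went from 42.3, 58.4 and 49.4 FPKM to 111, 152, 154 and 147 FPKM (1.48 ± 0.20, adjusted p = 0.00337). Rsph1 of the radial spoke went from 15.6, 29.2 and 15.6 FPKM to 46.7, 55.9, 55.8 and 56 FPKM, and Tekt1, Ccdc113, Ccdc39 and Dnah5 rose by 1.16, 1.5, 1.46 and 1.5 on the log2 scale, of which Dnah5 was not called without PBS 3. The most abundant genes of the list did not pass the test, with Sec14l3 at 281 to 337 FPKM in PBS and 365 to 460 FPKM in OL (0.39 ± 0.15, adjusted p = 0.0575) and Tubb4b at 135 to 201 and 180 to 193 FPKM (adjusted p = 0.383).

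Of 16 club cell genes 5 were higher and 1 lower, but only 1 was higher without PBS 3 and 3 with the GC correction, and none was lower in either. Scgb1a1 was at 32159, 26145 and 37867 FPKM in PBS and at 31370, 47905, 42534 and 45097 FPKM in OL, and the groups overlapped (adjusted p = 0.435). Scgb3a2, another secretoglobin, rose from 326, 867 and 313 FPKM to 1093, 1863, 1914 and 1716 FPKM (1.85 ± 0.43, adjusted p = 0.00916). Scgb3a1 was at 160, 1349 and 35.7 FPKM in PBS and at 1773, 2961, 3113 and 2458 FPKM in OL (3.65 ± 1.09, adjusted p = 0.0231), with PBS 2 close to the OL range, and was not called without PBS 3. Bpifa1, the most abundant defence protein of the upper airway, had 3518 FPKM in PBS 2 against 373 and 42 FPKM in PBS 1 and 3, and 1714 to 3717 FPKM in OL (adjusted p = 0.175). Lypd2 had 112 FPKM in PBS 2, 15.4 and 23.5 FPKM in the other PBS libraries and 116 to 178 FPKM in OL. Its groups did not overlap, and it was higher (2.14 ± 0.64, adjusted p = 0.0233), but not without PBS 3 (adjusted p = 0.102). Genes of basal cells, the progenitors of the large airways, were also high in PBS 2. Krt5 had 0.816, 12.9 and 0.0977 FPKM in PBS and 11 to 16 FPKM in OL, and Krt15 1.5, 16.6 and 0.456 against 11.4 to 22.4 FPKM, without passing the test (adjusted p = 0.116 and 0.119). Of 12 basal genes 1 was higher, Sostdc1, and none lower, and this call was lost without PBS 3 and with the GC correction.

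In lists of the lung parenchyma, its vessels and the matrix, genes were called lower and none higher. Of 17 genes of alveolar epithelium 8 were lower and none higher (median -0.77), with 4 lower without PBS 3, 7 with the GC correction and 2 with both. The sum of their FPKM was 14711, 13324 and 20773 in PBS and 7655, 10968, 8779 and 12084 in OL. Etv5, a transcription factor of type 2 cells, fell from 32.6, 25.9 and 38.6 FPKM to 10.9, 14.1, 11 and 13.5 FPKM (-1.31 ± 0.18, adjusted p = 0.00337). Abca3, the lipid transporter of lamellar bodies, fell from 37.4, 32.1 and 60.5 FPKM to 18.6, 18.8, 12.7 and 20.1 FPKM (-1.23 ± 0.20, adjusted p = 0.00375). Both were called in all 4 settings. Sftpb, surfactant protein B, fell from 1063, 800 and 1836 FPKM to between 283 and 385 FPKM (-1.81 ± 0.35, adjusted p = 0.00509). Aqp5, the water channel of type 1 cells and glands, fell from 91.6 ± 29.4 to 35.6 ± 7.67 FPKM, and Ager, another type 1 cell marker, from 779 ± 219 to 399 ± 52.2 FPKM (adjusted p = 0.0315), the latter not without PBS 3 or with the GC correction. Sftpc was at 8824, 8176 and 12502 FPKM in PBS and at 4164, 6549, 5090 and 7156 FPKM in OL without passing the test (-0.78 ± 0.36, adjusted p = 0.103).

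Endothelial genes were lower for 7 of 16 (median -0.46), among them Tie1, Plvap and Cldn5, with log2 fold changes of -1.06, -1.01 and -0.95. None of the 16 was called without PBS 3 or with the GC correction. In a list of red cell and platelet genes 2 of 12 were lower, both of haemoglobin, and neither was called without PBS 3 or with the GC correction. Hba-a1 was at 2047, 999 and 2852 FPKM in PBS and at 591 to 793 FPKM in OL (-1.37 ± 0.38, adjusted p = 0.0178), and Hbb-bs at 3159, 1703 and 4085 against 1150 to 1716 FPKM (adjusted p = 0.0485). Of 27 collagens and fibrous matrix genes 14 were lower and none higher (median -0.68), and 11 were lower without PBS 3 and 9 with the GC correction. Loxl1, which cross-links elastin, fell from 64.4, 44.8 and 115 FPKM to 22.3, 26.8, 20.4 and 26.3 FPKM (-1.50 ± 0.25, adjusted p = 0.00366) and was the only gene of the list called in all 4 settings. Sparc, the most abundant, fell from 512, 480 and 517 FPKM to 278, 339, 296 and 349 FPKM (-0.68 ± 0.14, adjusted p = 0.00689). Col1a1, the main chain of fibrillar collagen, fell from 64.9, 79.2 and 84.2 FPKM to 42.5, 41.2, 23.6 and 54.7 FPKM (-0.94 ± 0.26, adjusted p = 0.0183), and the basement membrane chain Col4a2 from 151 ± 58.5 to 60.8 ± 3.59 FPKM. Elastin itself, Eln, had 146, 67.5 and 181 FPKM in PBS and 42.9 to 75.6 FPKM in OL, an overlap between PBS 2 and OL 78 (-1.07 ± 0.29, adjusted p = 0.0167). Col1a1 and Eln were called neither without PBS 3 nor with the GC correction.

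Of 16 fibroblast genes 5 were lower and none higher, with 3 lower without PBS 3 and 2 with the GC correction. Pdgfrb, a receptor of mural cells and fibroblasts, fell from 44.9, 39.6 and 51.3 FPKM to 20.9, 21.4, 20.7 and 21.2 FPKM (-1.06 ± 0.14, adjusted p = 0.00337), with hardly any spread among the OL libraries, and was called in all 4 settings. Pdgfra (-0.68 ± 0.15) and Inmt (-0.90 ± 0.30), the most abundant gene of the list, were also lower, Inmt in neither of these settings. Smooth muscle showed 2 lower genes of 13. Actg2, gamma smooth muscle actin, fell from 77.7 ± 2.24 to 44.3 ± 5.45 FPKM (-0.80 ± 0.22, adjusted p = 0.0159) but was not called without PBS 3, whereas Acta2 was at 322 to 388 FPKM in PBS and 252 to 266 FPKM in OL (adjusted p = 0.126). Of 14 matrix metalloproteinases and inhibitors only Mmp12 was higher, and 5 were lower, among them Mmp11 (-1.05 ± 0.18) and Timp2 (-0.49 ± 0.12). The list had 2 lower genes without PBS 3 and 2 with the GC correction, where Timp2 was not called.

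**Figure D4:**
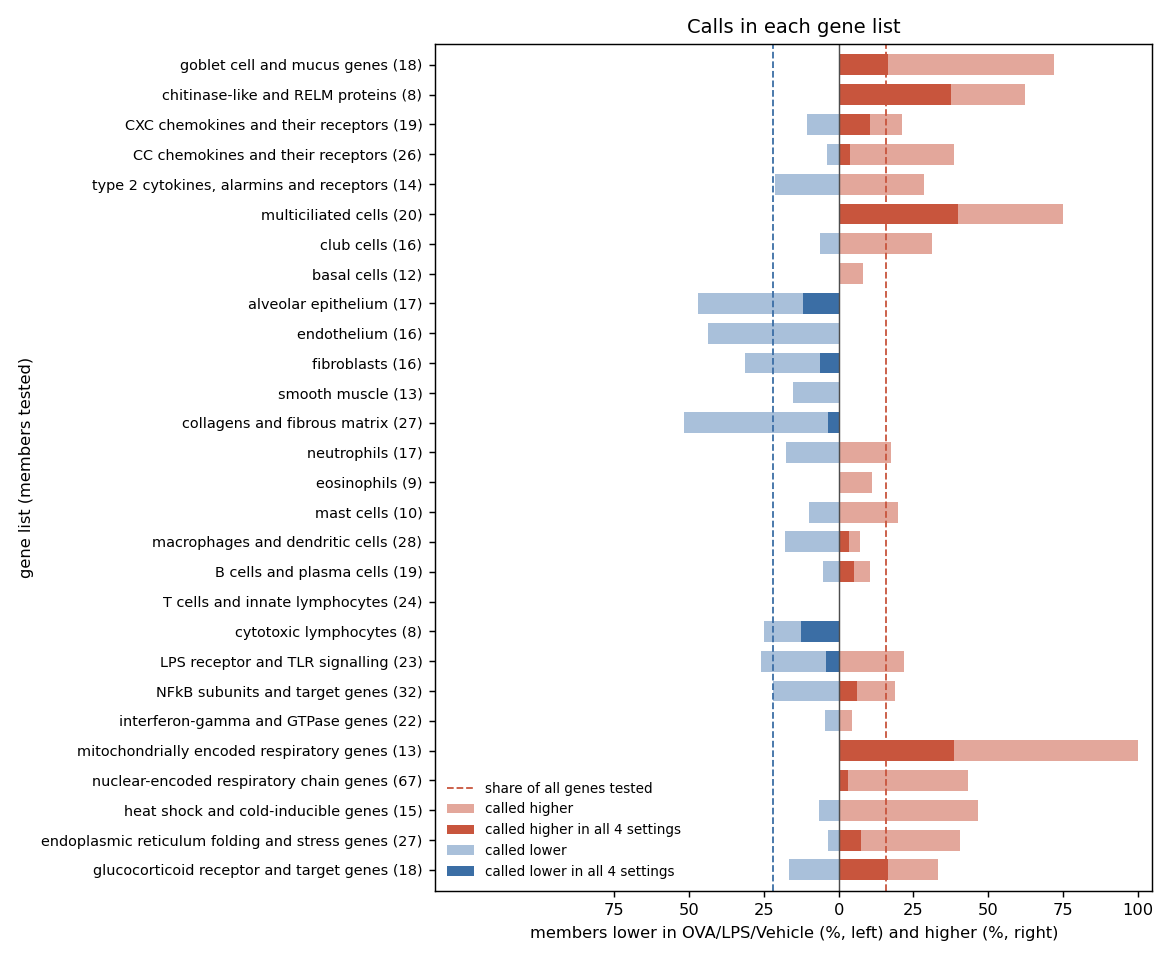
Share of the tested members of 28 gene lists that were called lower (blue, %, to the left) and higher (red, %, to the right) in OVA/LPS/Vehicle than in PBS, with the number tested in brackets. Dark bars are members called in all 4 settings, and the dashed lines mark the shares of all genes tested (22.1% lower, 15.9% higher). Multiciliated, mucus and mitochondrial lists reach farthest to the right and matrix, alveolar and endothelial lists farthest to the left.

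All 13 mitochondrially encoded respiratory genes were higher, with a median of 2.11, which was 1.44 without PBS 3, 1.5 with the GC correction and 1.04 with both. The most abundant, mt-Co1 of complex IV, was at 7644, 13338 and 2839 FPKM in PBS and at 26514, 20690, 25119 and 23385 FPKM in OL (1.85 ± 0.46, adjusted p = 0.0121; not called without PBS 3), and mt-Cytb of complex III at 3911, 6505 and 1686 against 12984, 9980, 11922 and 11539 FPKM. Every OL library was above every PBS library, and PBS 3 was lowest for both. mt-Nd3, which shared the smallest adjusted p with Retnla, had 0.572, 0.371 and 0.154 FPKM in PBS and 10.8, 6.18, 10.5 and 9.11 FPKM in OL (2.88 ± 0.22, adjusted p = 0.000192), on 3, 2 and 1 fragments in PBS and 34 to 58 in OL. The ratios differed between genes of this single genome, from 2.88 for mt-Cytb to 5.66 for mt-Co2 and 24.9 for mt-Nd3 in mean FPKM. mt-Nd6, which lies on the other strand, was at 357, 515 and 36.6 FPKM in PBS and at 1546 to 1797 FPKM in OL, and mt-Nd3, mt-Co2, mt-Atp6, mt-Co3 and mt-Nd6 were called in all 4 settings. mt-Atp6 and mt-Atp8 overlap, as do mt-Nd4 and mt-Nd4l, and whether counting used the strand is not stated, so that the values of mt-Atp8, mt-Nd4l and mt-Nd6 are uncertain. Of 67 nuclear-encoded respiratory genes 29 were higher and none lower (median 0.46), with 8 higher without PBS 3 and 21 with the GC correction. Among them were Uqcrb (1.30 ± 0.27), Atp5k (1.10 ± 0.20) and Ndufa3 (0.44 ± 0.09), and Atp5k and Ndufa3 were called in all 4 settings. Of 57 ribosomal protein genes 9 were higher and 2 lower (median 0.04), with 5 and 1 without PBS 3 and 6 and none with the GC correction.

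Some chaperones of the endoplasmic reticulum and the cytosol rose. Of 27 genes of protein folding in the endoplasmic reticulum 11 were higher and 1 lower, although the list median was only 0.11. Hspa5, the chaperone BiP, rose from 97.8, 97.7 and 90.7 FPKM to 149, 160, 179 and 188 FPKM (0.81 ± 0.14, adjusted p = 0.00394), and Hsp90b1 from 70.5 ± 12.7 to 122 ± 13.8 FPKM. Manf, a secreted stress factor, rose from 10.9 ± 1.07 to 22.6 ± 4.80 FPKM (0.96 ± 0.15, adjusted p = 0.00365), and with Dnajb9 it was called in all 4 settings. Calr, the most abundant, had 163 to 189 FPKM in PBS and 156 to 180 FPKM in OL (adjusted p = 0.489). Of 15 heat shock and cold-inducible genes 7 were higher and 1 lower (median 0.90). Hsp90aa1 rose from 133, 122 and 62.4 FPKM to 216, 245, 302 and 367 FPKM (1.45 ± 0.28, adjusted p = 0.00535), and Hspa8 from 168 ± 22.6 to 317 ± 58.8 FPKM, while the cold-inducible Cirbp fell from 35.3, 38.5 and 40 FPKM to 23.5, 24.4, 21.8 and 18.9 FPKM (-0.75 ± 0.16, adjusted p = 0.00662). None of the list was called in all 4 settings.

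Genes under glucocorticoid and clock control differed in part. Of 18 glucocorticoid targets 6 were higher and 3 lower (median 0.41). There were 7 higher without PBS 3, 7 higher and 2 lower with the GC correction, and 3 higher with both. Of all genes 8.39%, 7.87% and 1.09% were higher in these settings, and the list lay above each of these shares. Tsc22d3, the glucocorticoid-induced leucine zipper, rose from 25.7, 35 and 23.7 FPKM to 42.5, 70.7, 101 and 75.1 FPKM (1.29 ± 0.25, adjusted p = 0.00525). Glul (0.77 ± 0.15), Mt1 (0.97 ± 0.23) and Cdkn1a (0.67 ± 0.17) were called in all 4 settings. Dusp1, a phosphatase and the most abundant target, fell from 148 ± 26 to 88 ± 16.2 FPKM (-0.75 ± 0.20, adjusted p = 0.0151), but none of the list was lower without PBS 3, and Dusp1 was not called with the GC correction. Among 10 clock repressors 2 were higher, among 6 activators 1 was higher and 2 lower, and among 7 clock outputs 4 were higher. Without PBS 3 no repressor or activator was called and 3 outputs were. Tsc22d3, given above, was also the most abundant gene of the outputs, so that the 2 lists are not separate observations. Dbp, an output factor, was at 0.821, 2.52 and 0.538 FPKM in PBS and at 3.15, 5.05, 5.3 and 3.18 FPKM in OL (1.24 ± 0.28, adjusted p = 0.00821). Nr1d2, or REV-ERBβ, had 3.83, 15.7 and 2.72 FPKM in PBS and 15.3, 23.6, 22.7 and 19 FPKM in OL, and PBS 2 lay inside the OL range and its call was lost without PBS 3. The hour at which each library was collected is not given in the labels.

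Glutathione genes, which are of interest because the study's other arm inhibited γ-glutamyl transferase, showed 7 higher and 9 lower of 33, near the shares of all genes, with 2 and 7 without PBS 3, 4 and 6 with the GC correction and none and 1 with both. The transferases Gstm1 (389, 379 and 468 FPKM in PBS, 204 to 251 FPKM in OL, -0.87 ± 0.14, adjusted p = 0.00365) and Gstm2 (-0.59 ± 0.11) fell. Gsta3 fell from 42, 34.7 and 32.5 FPKM to 20.5, 28.3, 25.8 and 21 FPKM (-0.59 ± 0.14, adjusted p = 0.0102) and was the only gene of the list called in all 4 settings. Ggt5, which acts on leukotriene C4 and glutathione, fell from 2.37 ± 0.658 to 1.13 ± 0.243 FPKM (-0.65 ± 0.14, adjusted p = 0.00801). Chac2, an enzyme of glutathione breakdown in the cytosol, rose from 3.57 ± 1.97 to 8.04 ± 0.839 FPKM (1.07 ± 0.24, adjusted p = 0.00776), but was not called with the GC correction. Of 24 leukotriene and prostanoid genes 4 were higher and 4 lower, with 3 and 2 without PBS 3 and 1 and 3 with the GC correction. Ptgis, prostacyclin synthase, fell from 43.3 ± 10.8 to 19.6 ± 2.68 FPKM (-1.08 ± 0.16, adjusted p = 0.00337), and Ptges3, a prostaglandin E synthase that is also an Hsp90 partner, rose from 43.6 ± 11.7 to 88.9 ± 11.2 FPKM. Of 22 immediate early genes 1 was higher and 6 lower (4 lower without PBS 3, 2 with the GC correction), among them Ier3, from 172, 94.9 and 171 FPKM to 56.3, 73.2, 47.5 and 52.1 FPKM (-1.30 ± 0.28, adjusted p = 0.00688), and Ier2 (-0.94 ± 0.18).

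Of 30 cell cycle genes 6 were higher and 1 lower (median 0.16), with 1 higher and none lower both without PBS 3 and with the GC correction. Mki67, a marker of proliferation, was at 2.29, 2.09 and 1.98 FPKM in PBS and at 9.76, 2.29, 6.16 and 3.4 FPKM in OL (0.89 ± 0.32, adjusted p = 0.0447), so that OL 12 and OL 56 were high and OL 34 equalled PBS 1 to the digits given. It was called in neither of these settings.

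The genes with the smallest p outside the groups above did not overlap between PBS and OL libraries. Myb, a transcription factor of progenitor cells and of early ciliated cells, was at 0.788, 1.13 and 1.06 FPKM in PBS and at 6.05, 4.39, 4.32 and 4.49 FPKM in OL (1.54 ± 0.14, adjusted p = 0.0005). Ccna1, a cyclin used in the male germ line and by ciliated cells, rose from 0.579, 0.633 and 0.526 FPKM to 3.48, 5.03, 3.83 and 5.64 FPKM (1.78 ± 0.16, adjusted p = 0.0005). Pla2g7, which degrades platelet-activating factor, rose from 4.90 ± 0.443 to 10.3 ± 0.946 FPKM (0.94 ± 0.12, adjusted p = 0.00337), and Ammecr1 from 1.21 ± 0.215 to 3.33 ± 0.186 FPKM. Among the falling genes, S1pr3, a receptor for sphingosine 1-phosphate, went from 21.4, 22 and 22.1 FPKM to 12, 11.9, 11.9 and 10.9 FPKM (-0.85 ± 0.09, adjusted p = 0.00239). Several others encode matrix or its regulators. Ltbp4 (138 ± 38.8 to 50 ± 7.07 FPKM) and Tnxb (21.8 ± 5.01 to 7.74 ± 1.52 FPKM) belong to elastic and collagen fibres, Prelp (113 ± 25.8 to 40.8 ± 5.32 FPKM) is a matrix proteoglycan, and Vasn (-0.81 ± 0.10) binds TGFβ. Angptl2 (-0.77 ± 0.09), the Wnt receptor Fzd1 (-0.77 ± 0.10), the sterol enzyme Mvk (-0.94 ± 0.11), Mocs1 (-1.03 ± 0.13) and the orphan receptor Gpr153 (-1.25 ± 0.14) completed the 10 lower genes with the smallest p.

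The dissected tissue also held RNA of neighbouring organs in unequal amounts. Markers of cardiac muscle, which surrounds pulmonary veins in mice, summed to 117, 2266 and 173 FPKM in PBS 1 to 3 and to 1598, 1169, 1886 and 1698 FPKM in OL 12 to 78. PBS 2 was highest of all 7 libraries. The most abundant gene was Myl7, at 1.01, 767 and 25.8 FPKM in PBS and 382 to 658 FPKM in OL (adjusted p = 0.0512). Of 17 tested, 7 were higher and 1 lower, and none was called without PBS 3. Myl2, the light chain of the heart ventricle, was at most 0.184 FPKM in any library. Skeletal muscle genes summed to 19.4, 261 and 32.3 FPKM in PBS and to 200, 293, 270 and 202 FPKM in OL, with Mb the most abundant, and 3 of 13 were higher. Mb was listed at 0 in PBS 1. Fat genes summed to 801, 1507 and 430 FPKM in PBS and 2406, 1245, 1667 and 1290 FPKM in OL, with Scd1 the most abundant and 4 of 18 higher, and Fabp4 and Ucp1 did not pass (adjusted p = 0.0842 and 0.129). None of the skeletal muscle and fat genes was called without PBS 3. Many genes called higher were highest in PBS 2 among the PBS libraries. This held for 1444 (64.7%) of the 2231 higher genes, 140 of which reached at least the lowest OL library in PBS 2. Of the 107 named higher genes it held for 66, among them Muc5ac, Muc5b, Tff2, Agr2, Bpifb1, Scgb3a1, Cxcl17, Ccl20, Ccl11, Ccl8 and Foxj1, and 5 of the 66 reached the lowest OL library. The same tally was not made over all genes tested, so that these shares have no background. PBS 2 also lay nearest to the OL libraries on the first principal component.

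Markers of other organs were high in some OL libraries and not in others. Tg, the thyroid hormone precursor, was at 0.553, 0.305 and 0.828 FPKM in PBS and at 90.6, 166, 303 and 0.256 FPKM in OL 12 to 78, and Pth, parathyroid hormone, was listed at 0 in PBS 1, PBS 2 and OL 78, at 0.151 FPKM in PBS 3 and at 6, 91.8 and 224 FPKM in OL 12, 34 and 56. Lipf, gastric lipase, which serous glands also make in mice, followed, with 0.533 to 2.45 FPKM in PBS, 60, 219 and 590 FPKM in OL 12, 34 and 56 and 0.254 FPKM in OL 78, and Dcpp2, a gland protein with near-identical copies, stood at 304 FPKM in OL 56. All 4 genes were called (adjusted p between 0.0201 and 0.0353), although OL 78 lay at the PBS level, and none of the 4 was called without PBS 3. The 16 thyroid and parathyroid genes, with Tg the most abundant, summed to 98.2, 69.2 and 110 FPKM in PBS and to 176, 378, 687 and 91.7 FPKM in OL, and of 9 tested 4 were higher and none lower, with 2 higher without PBS 3. Dio1, a deiodinase, was at 2.03, 3.98, 5.19 and 2.31 FPKM in OL with at most 0.458 FPKM in PBS, and was called in all 4 settings. The gland genes summed to 324, 481 and 554 FPKM in PBS and to 462, 844, 1809 and 396 FPKM in OL, with Ltf the most abundant. Of 9 tested 5 were higher and 2 lower, against 1 and 1 without PBS 3. Barx2, at 1.72 to 2.29 FPKM in PBS and 3.11 to 4.56 FPKM in OL, kept its call in all 4 settings. OL 12 stood far above the others in immature thymocyte RNA, with Rag1 at 8.53 FPKM and Dntt at 13.8 FPKM against at most 0.0976 and 0.301 FPKM elsewhere. The same held for the enzyme Dbh of sympathetic neurons, at 25.1 FPKM against at most 0.839 FPKM. The thymus genes, with Rmnd5a the most abundant, summed to 117 FPKM in OL 12 and to 27.3 to 46.8 FPKM elsewhere. Of 9 thymus genes 1 was higher, of 14 nerve and Schwann cell genes 2 were higher, none of these without PBS 3, and of 16 cartilage genes none was called. The T cell genes summed to 199 FPKM in OL 12 against 46.1 to 100.5 FPKM in the other 6 libraries. The part of these tissues in the differences above was not tested.

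**Figure D5:**
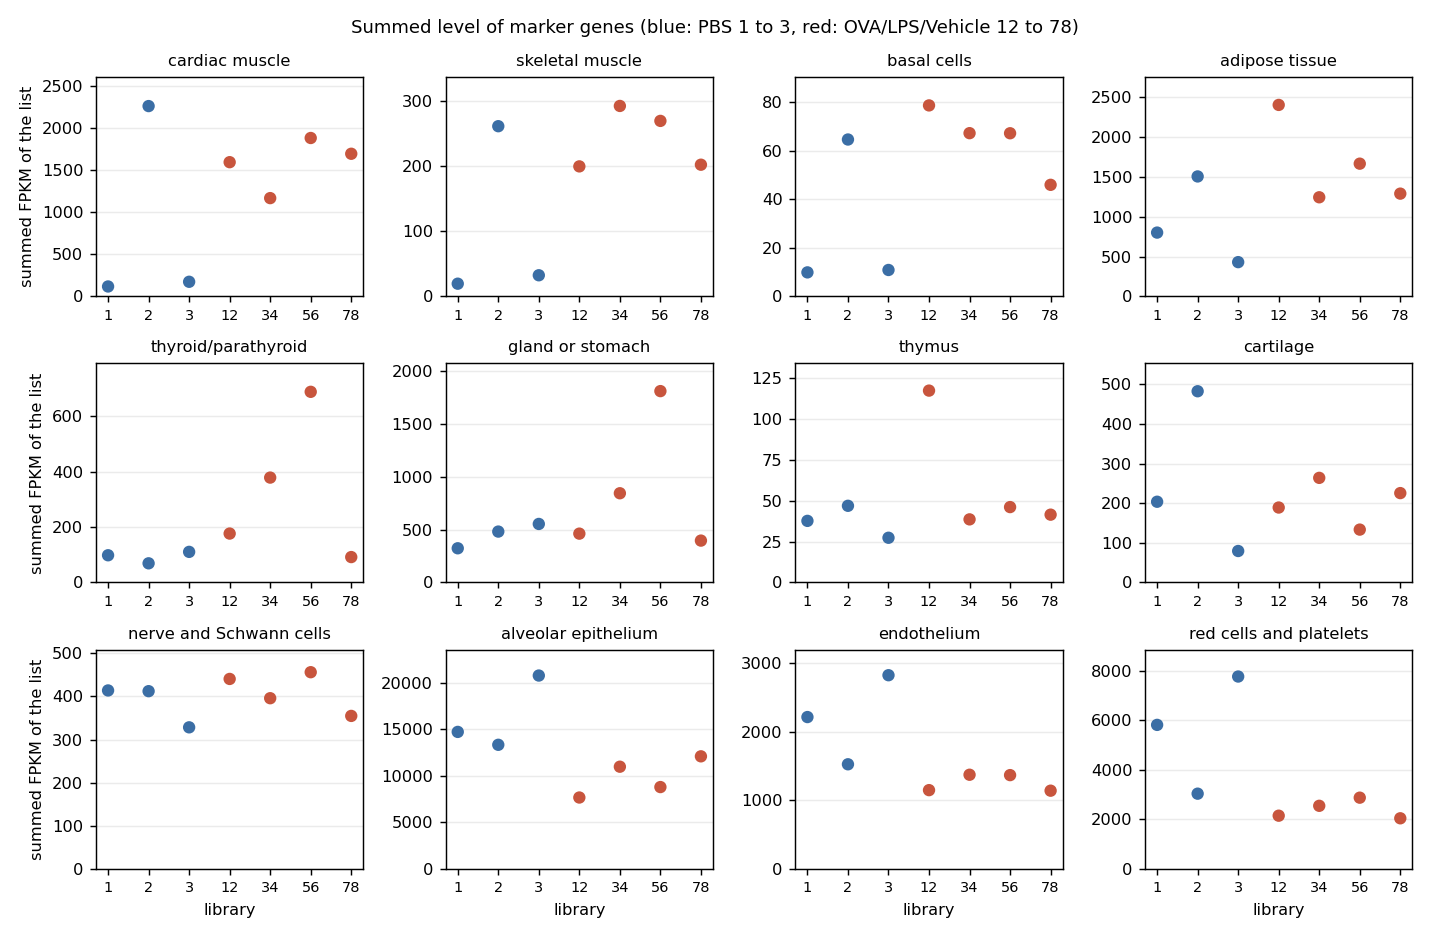
Summed FPKM of the marker genes of 12 cell types and tissues in PBS 1 to 3 (blue) and OVA/LPS/Vehicle 12, 34, 56 and 78 (red), with 1 point per library and axes from 0. PBS 2 sits with the red points for cardiac muscle (2266), skeletal muscle (261) and basal cells (64.6), OVA/LPS/Vehicle 12 stands alone for thymus (117), and OVA/LPS/Vehicle 56 is highest for thyroid (687) and gland (1809).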

How the data were processed

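Poly-A RNA of dissected airway was sequenced in 11 libraries, and the 3 PBS and 4 OVA/LPS/Vehicle libraries, grouped by their labels, were compared. The authors deposited FPKM, fragments per gene divided by exon length and library total, in 1 column per library. The submitters' processing notes name cutadapt 1.15, HISAT2 2.0.5, HTSeq 0.9.1 and build mm39, with no role given, and the use of strand in counting is not given in the sources used here. Of 21899 genes, 21795 matched a symbol in GENCODE M21 (GRCm38), and 3627 were listed at 0 in all libraries. With merged exon lengths of that annotation, FPKM were whole multiples of 1 fragment within 0.02 in every library for 21414 genes (97.8%), which gave fragments and depth. Fragment numbers are therefore recovered values, and they cover counting error only.

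Values of log2(FPKM + 1) of genes with a mean FPKM of at least 0.5 entered a linear model in limma 3.58.1 (R 4.3.3), whose prior variance followed the mean level. All 11 libraries entered, with 3 group means, and in the model the OVA/LPS/GGsTop libraries added to the estimate of spread only. They also counted towards the mean FPKM of the filter, and so had a part in which genes were tested. P-values were two-sided, adjusted over 14004 genes by the Benjamini-Hochberg method, and called under 0.05. A fold change on this scale understates the change of low genes. For genes that the filter removed an exact permutation test was used, whose smallest two-sided p is 0.0571. The GC correction subtracted from each library a smooth curve over exon GC content (natural spline, 5 degrees of freedom; 13987 genes), fitted to its deviations from the gene means. The 4 settings are the fit as described, the fit without PBS 3, the GC correction, and both.

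The comparison, the 52 gene lists and the tests were chosen with earlier results of these data known. In each direction the 10 genes of smallest p are named, and in each list the 3 with the smallest p and the 2 most abundant, together with the genes of the study's qPCR. All other members of lists that are named, and Rnase2a, were chosen after their values were seen. Promoters are RefSeq sequences on GRCm38.p6. Alternatives were other pseudocounts, filters, scalings and variance models, limma voom on recovered reads, removal of mitochondrial genes, only the groups compared, and each library left out in turn. The combination of the GC correction or of only 2 groups with the loss of PBS 3 was added after seeing the data. Measurements of the study other than RNA-seq were not analysed here. Some genes that the rule for naming selects are not reported here. Tables were made in Python 3.11.15 (pandas 2.3.3, numpy 2.4.6) and plots with matplotlib 3.10.9.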

Additional observations from a re-analysis of the deposited data

Results flagged for a closer look

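In groups of 4 libraries a single library was set apart where its gap to the nearest other, divided by the whole range, exceeded the critical value of Dixon's test, which chance alone gives in about 1 of 20 groups. The 207 genes examined in the OL libraries were genes named in this text, some of them chosen after their values were seen. Of these genes 15 had such a library, and for 10 of the 15 it was OL 12. Because of that choice the tally is a description and not a test of OL 12. OL 12 was high for the thymocyte genes Rag1 (8.53 FPKM) and Dntt (13.8 FPKM), for Dbh of sympathetic neurons (25.1 FPKM), for the GTPase gene Iigp1 (27 FPKM), for Cdk1 (1.9 FPKM) and Myb (6.05 FPKM), and for Il25 (0.182 FPKM, 3 fragments). It was low for the ciliary genes Dynlrb2 (111 FPKM) and Rsph1 (46.7 FPKM) and for Lypd2 (116 FPKM), and all 3 values lay above the highest PBS library. OL 56 was low for Cxcl3 (0.233 FPKM) and Tnxb (5.49 FPKM). OL 78 was high for mt-Atp8 (2.35 FPKM, 8 fragments) and low for Dusp1 (64 FPKM) and S1pr3 (10.9 FPKM). Without OL 12, Rag1 had a log2 fold change of -0.0555.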

How the results depend on the processing

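Against 2231 higher and 3096 lower genes, the counts moved by over 1.5 times in these alternatives. Higher genes numbered 1232 with the same FPKM total, 3443 with array weights, 1101 with the GC correction, 152 with the GC correction without PBS 3 and 1192 with only the 2 groups without PBS 3. Lower genes numbered 1803, 156 and 1818 in the last 3 of these. With each library left out in turn, higher genes ranged from 1175 (without PBS 3) to 3045 (without PBS 2) and lower genes from 1889 to 3395. Limma voom on recovered reads called 2394 higher and 3133 lower genes. Of the calls, 254 changed sign with the GC correction, and the cause was not tested.

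Of 169 named genes called, 56 kept direction and call in each of 21 alternatives and 57 in the 4 settings, and none changed sign. The call was lost by 50 without PBS 3, 38 with the GC correction and 112 with both, and by 36 without PBS 1, 7 without PBS 2, 19 to 26 with an OL library left out and 39 with only the 2 groups without PBS 3. Of 29 named genes not called, 5 changed sign. Tslp was at -0.0480 with the GC correction and at -0.11 also without PBS 3. S100a9 was at -0.0052 with the same FPKM total and at -0.0788 with the GC correction, and ranged from -0.28 to 0.68 with a library left out. S100a8 then ranged from -0.18 to 0.81, Rag1 from -0.0555 (without OL 12) to 1.02, and Col2a1 from -1.49 to 0.20, and Col2a1 was at 1.88 in limma voom on recovered reads. No paired analysis was possible because the 2 groups share no replicate number. With at most 6 fragments in any library, Il5, Il13 and Ifng allow no statement on their change.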
